A study of Mus musculus with 6 samples.

Results

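The genes described here are Trp53, which encodes the transcription factor p53, its inhibitors Mdm2 and Mdm4, and 7 genes that p53 is known to switch on: Ccng1, Phlda3, Zmat3, Sesn1, Sesn2, Gadd45a and Ddb2. They were taken by symbol from the authors' deposited gene table, which holds 22381 genes, and all 10 were found on 1 line each. RNA was sequenced from LSK cells of the bone marrow, which are negative for lineage markers and positive for Sca-1 and c-Kit and include blood stem cells and multipotent progenitors. The groups were 3 samples from Tgif1-/- mice and 3 samples from WT (Tgif1+/+) mice, all of strain C57BL/6 and aged 8 to 12 weeks. Tgif1 encodes a homeodomain repressor of TGF-beta and retinoic acid responses. How the Tgif1 allele was made, whether the deletion was limited to blood cells and whether each sample was a different mouse are not stated, so the p-values may cover technical spread only. The series title asks how Tgif1 bears on stem cell quiescence and self-renewal, and the comparison here asks whether expression of the p53 network differed between the genotypes.

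p53 is kept scarce in resting cells because Mdm2 marks it for degradation and Mdm4 masks its activation domain. DNA damage, oncogene activity or ribosome stress releases p53 from both, and it then binds DNA and raises genes that pause the cell cycle, repair DNA, limit growth signals or start cell death. Mdm2 is itself one of these genes, which closes a feedback loop. In mouse blood stem cells p53 is known to favour quiescence. Much of the control of p53 acts on the protein and is not seen in the level of its mRNA.

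p53 binds a response element built from repeats of a 10-base unit. The pattern of the unit allows more than 1 base at most positions. This pattern reads the same on both strands, while a single match need not. Promoter windows of 300 bases, from 250 bases before to 50 bases after the gene start, were taken from RefSeq (GRCm38.p6) for 8 of the 10 genes, in 10 windows, and were searched for the p53 response element unit with no mismatch. A unit was present in 5 of these 10 windows, against 8.36% of all 32851 RefSeq windows. The window of Ccng1 (cyclin G1) is shown because its unit directly follows 10 bases that differ from the pattern at 1 position. Together they form a 20-base stretch with 1 mismatch that starts 195 bases before the gene start. Such a stretch, with at most 1 mismatch, was present in 29 of all windows (0.0883%). The capitals mark the 20 bases, and the window lies on the minus strand at chr11:40755237-40755536 (GRCm38.p6).
Ccng1: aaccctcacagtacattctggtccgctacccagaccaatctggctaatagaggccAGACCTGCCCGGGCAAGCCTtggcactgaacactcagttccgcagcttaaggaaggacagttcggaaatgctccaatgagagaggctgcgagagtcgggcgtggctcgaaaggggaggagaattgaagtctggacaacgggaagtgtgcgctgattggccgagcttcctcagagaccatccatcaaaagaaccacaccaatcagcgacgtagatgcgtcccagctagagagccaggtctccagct

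The other 4 genes with a unit are shown as stretches of 30 bases with the unit in capitals, so that the matches can be compared with that of Ccng1. They lie at chr11:69580274-69580303 (plus strand, Trp53), chr10:117710925-117710954 (minus strand, Mdm2), chr10:41887256-41887285 (plus strand, the second of 2 start sites of Sesn1) and chr6:67037428-67037457 (minus strand, Gadd45a) of GRCm38.p6. The unit starts 75 bases before the gene start in Trp53, 186 in Mdm2, 173 in Sesn1 and 40 in Gadd45a. The closest 20-base match to 2 units in these windows had 3 mismatches in Trp53, Sesn1 and Gadd45a and 5 in Mdm2, against 1 in Ccng1. In Gadd45a the first such match started 244 bases before the gene start, away from the unit shown. The first window of Mdm4, which held no unit, also had a match with 3 mismatches. The share of all windows with such a match was not counted.
Trp53: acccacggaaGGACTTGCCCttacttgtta
Mdm2: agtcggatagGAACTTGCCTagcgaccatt
Sesn1: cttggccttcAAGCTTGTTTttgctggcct
Gadd45a: ggttggctgaGGGCTAGCCCcatatctccg
The windows of Mdm4, Phlda3 and Sesn2 held no unit, and Zmat3 and Ddb2 were not searched. A match describes letters only, and no binding of p53 was measured.

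None of the 8 genes of the p53 network that the authors tested was called as differing between Tgif1-/- and WT LSK cells. Of the 8, 4 had a higher and 4 a lower value in the Tgif1-/- group, all within 1.5-fold. Among all 10730 tested genes, 4573 were higher and 6157 lower in the Tgif1-/- group. A gene counted as called where its q-value in the authors' deposited table, a p-value adjusted over all tested genes, was at or under 0.05, which held for 0.662% of the 10730 tested genes (71 genes). Of the 8 genes 1, Mdm4, had an unadjusted p under 0.05 in the authors' deposited table, against 5.41% of all tested genes. The tests of Trp53 and Ddb2 are marked as failed in the authors' deposited table, as are those of 24.2% of the 12452 genes that reached 1 FPKM in either group, so these 2 genes have levels but no error and no p-value.

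The levels are FPKM, fragments scaled to transcript length and to the mapped total of the library, and the table gives 1 authors' value per group and none per sample. No SD and no overlap between samples can therefore be given, and the sequencing depth is unknown. The error printed beside a log2 ratio (Tgif1-/- over WT) is the standard error implied by the statistic in the authors' deposited table, with its 95% interval. In bulk RNA of this kind a change in the number of cells of a type and a change in RNA per cell cannot be told apart.

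Trp53 was the most abundant of the 10 transcripts per unit of length. Its authors' values were 312 FPKM in the Tgif1-/- group and 342 FPKM in the WT group, a log2 ratio of -0.13 with no error because the test failed. Its mean level was above that of 96.8% of the 12452 genes that reached 1 FPKM in either group. Trp53 (ENSMUSG00000059552) lies on chromosome 11 at positions 69393861 to 69405375 of the table, and no source used here names the mouse build of these positions. Wrap53, which encodes a telomerase assembly protein and from which an antisense transcript of p53 is known in human cells, ends 103 bases before Trp53 in the table. Its values were 4.50 FPKM in the Tgif1-/- group and 4.57 FPKM in the WT group. No source used here says whether strand was counted, so antisense reads over Trp53 cannot be told apart from its own.

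**Figure D1:**
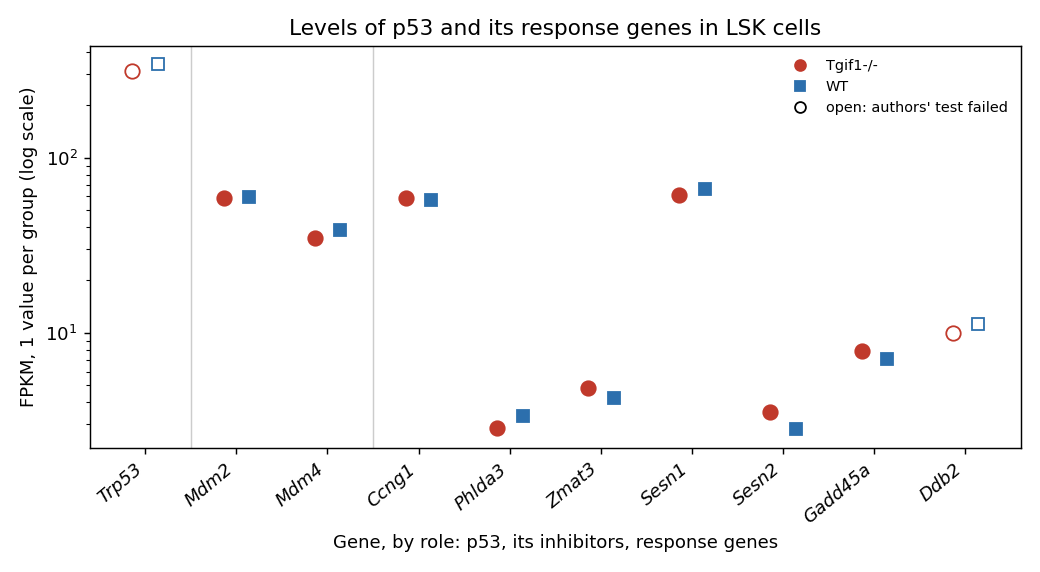
FPKM of each gene (log scale) in the Tgif1-/- group (red circles, left) and the WT group (blue squares, right), 1 authors' value per group, with open symbols where the authors' test failed. Trp53 stands at 312 FPKM in the Tgif1-/- group and 342 FPKM in the WT group, Sesn1, Ccng1, Mdm2 and Mdm4 between 34.7 and 66.4 FPKM, and the other genes between 2.80 and 11.2 FPKM, with the symbols of a gene close together throughout.

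The inhibitors were both well expressed and differed little between the groups. Mdm2, the ubiquitin ligase that degrades p53, had 58.8 FPKM in the Tgif1-/- group and 59.4 FPKM in the WT group. The log2 ratio of Mdm2 was -0.01 ± 0.11 (implied standard error), with an interval from 0.852-fold to 1.15-fold (p = 0.900 in the authors' deposited table). Its direction turned positive, at 0.0179, when ratios were centred on the median of all tested genes. Mdm2 (ENSMUSG00000020184) lies on chromosome 10 at positions 117125944 to 117147814 of the table and Mdm4 (ENSMUSG00000054387) on chromosome 1 at 134886422 to 134921943.

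Mdm4, the relative of Mdm2 that binds p53 and blocks its activation domain, had 34.7 FPKM in the Tgif1-/- group and 38.6 FPKM in the WT group. The log2 ratio was -0.16 ± 0.07, with an unadjusted p of 0.0276 and an adjusted one (q) of 0.693 in the authors' deposited table. Mdm4 was the only one of the 8 tested genes whose interval, 0.815-fold to 0.988-fold, left out no change. The implied error of Mdm4 was small beside the median of 0.20 among 534 tested genes of like expression. With its error raised to that median, its unadjusted p was 0.426. The ratio of Trp53 to Mdm2 levels was 5.31 in the Tgif1-/- group and 5.75 in the WT group, and that of Trp53 to Mdm4 was 9.0 in the Tgif1-/- group and 8.84 in the WT group.

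Among the response genes, Ccng1 and Sesn1 were expressed at about the level of Mdm2. Ccng1, whose cyclin G1 product recruits a phosphatase to Mdm2, had 58.9 FPKM in the Tgif1-/- group and 57.5 FPKM in the WT group. Its log2 ratio was 0.04 ± 0.17, with an interval from 0.812-fold to 1.29-fold (p = 0.836 in the authors' deposited table). The gene with the 20-base stretch shown above thus had nearly equal values in both groups. Ccng1 (ENSMUSG00000020326) lies on chromosome 11 at positions 40562054 to 40568813 of the table.

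The sestrins restrain the growth kinase complex mTORC1, and Sesn2 does so as a leucine sensor. Sesn1 had 60.9 FPKM in the Tgif1-/- group and 66.4 FPKM in the WT group, a log2 ratio of -0.12 ± 0.15 (p = 0.395 in the authors' deposited table). Sesn2 had 3.53 FPKM in the Tgif1-/- group and 2.80 FPKM in the WT group, a log2 ratio of 0.33 ± 0.34 (p = 0.330 in the authors' deposited table). Sesn1 was thus the main sestrin of the pair, at 17.3 times the level of Sesn2 in the Tgif1-/- group and 23.7 times in the WT group. The ratio of Sesn2 was the largest among the 8 tested genes, and its interval ran from 0.792-fold to 2.00-fold, so that neither no change nor a doubling lay clearly outside it. Sesn3, a relative mainly known as a target of FoxO factors, had 17.5 FPKM in the Tgif1-/- group and 18.1 FPKM in the WT group. Sesn1 (ENSMUSG00000038332) lies on chromosome 10 at positions 41530380 to 41628230 of the table and Sesn2 (ENSMUSG00000028893) on chromosome 4 at 132047947 to 132066416.

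Gadd45a and Ddb2 belong to the response to damaged DNA. Gadd45a, a small stress protein that acts on cell cycle and stress kinases, had 7.90 FPKM in the Tgif1-/- group and 7.05 FPKM in the WT group. Its log2 ratio was 0.16 ± 0.22, with an interval from 0.835-fold to 1.5-fold (p = 0.449 in the authors' deposited table). Ddb2, which recognises ultraviolet lesions for nucleotide excision repair, had 9.92 FPKM in the Tgif1-/- group and 11.2 FPKM in the WT group, a log2 ratio of -0.18 with no error. The table gives Ddb2 the same position block as Acp2, a lysosomal phosphatase gene, at 16.4 FPKM in the Tgif1-/- group and 24.6 FPKM in the WT group, whose test also failed. Whether reads of these neighbours were assigned to each other was not tested, so the value of Ddb2 is uncertain. Gadd45a (ENSMUSG00000036390) lies on chromosome 6 at positions 66985090 to 66987451 of the table and Ddb2 (ENSMUSG00000002109) in a block on chromosome 2 at 91043042 to 91077139.

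Zmat3 and Phlda3 were expressed at a few FPKM. Zmat3, a zinc finger RNA-binding protein that regulates splicing, had 4.83 FPKM in the Tgif1-/- group and 4.25 FPKM in the WT group, a log2 ratio of 0.19 ± 0.27 (p = 0.482 in the authors' deposited table). Phlda3, which competes with the kinase Akt for membrane lipids, had 2.84 FPKM in the Tgif1-/- group and 3.33 FPKM in the WT group, a log2 ratio of -0.23 ± 0.46 (p = 0.617 in the authors' deposited table). Their intervals were wide, from 0.793-fold to 1.63-fold for Zmat3 and from 0.459-fold to 1.59-fold for Phlda3. Zmat3 (ENSMUSG00000027663) lies on chromosome 3 at positions 32233718 to 32264600 of the table and Phlda3 (ENSMUSG00000041801) on chromosome 1 at 137662696 to 137665713.

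**Figure D2:**
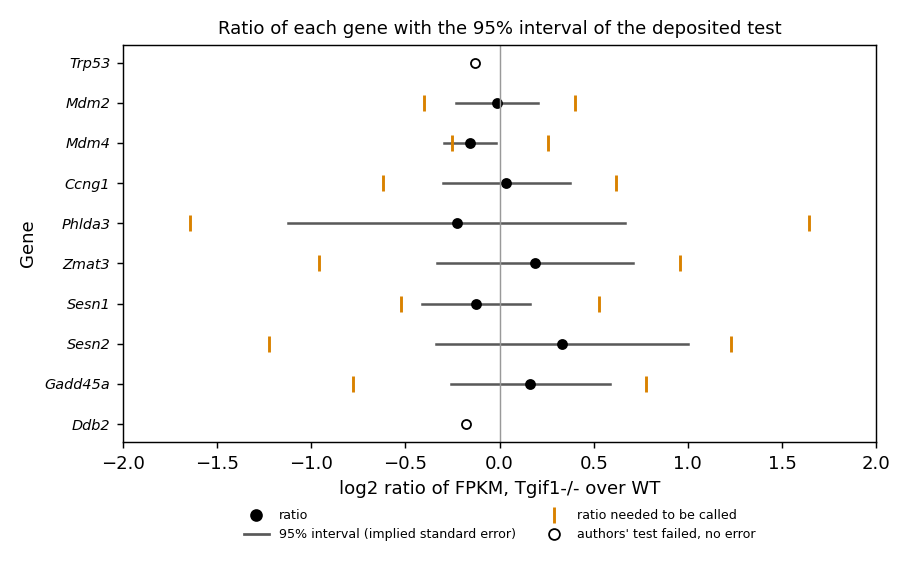
Log2 ratio of FPKM (Tgif1-/- over WT) of each gene (points) with its 95% interval from the implied standard error (lines) and the ratio at which the gene would have been called (orange ticks), with open points where the authors' test failed. The interval of Mdm4 alone leaves out 0, and no point reaches its ticks, which stand at 1.19-fold for Mdm4 and 3.13-fold for Phlda3.

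The order of levels was similar in both groups. In both, Trp53 was highest and Sesn1 next, and Mdm4, Ddb2, Gadd45a and Zmat3 followed each other at ranks 5 to 8. The neighbours that changed places were Ccng1 with Mdm2 and Sesn2 with Phlda3. With no spread per sample the order of neighbours cannot be tested.

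How large a change could have been seen depended on the gene. The highest p among called genes in the authors' deposited table was 0.000318. At the implied errors a change of at least 1.32-fold would have been called for Mdm2, 1.44-fold for Sesn1, 1.53-fold for Ccng1, 1.72-fold for Gadd45a, 1.94-fold for Zmat3 and 2.34-fold for Sesn2. For 7 of the 8 genes the implied error was below the median of tested genes of like expression, as for Mdm2 (0.11 against 0.19). With errors raised to that median, the changes needed and the intervals of those 7 genes would be wider. Of the 8 intervals, 6 lay within 2-fold in either direction and 4 lay within 1.5-fold, those of Mdm2, Mdm4, Ccng1 and Sesn1. For Phlda3 and Sesn2 a 2-fold change was within or at the edge of the interval. The median log2 ratio of the 8 was 0.01, against -0.03 for all tested genes, and 90.4% of the 10683 tested genes with both values above 0 were within 1.5-fold. With the values of Trp53 and Ddb2 included, the median over the 10 genes was -0.07; this alternative was added once the values were known.

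**Figure D3:**
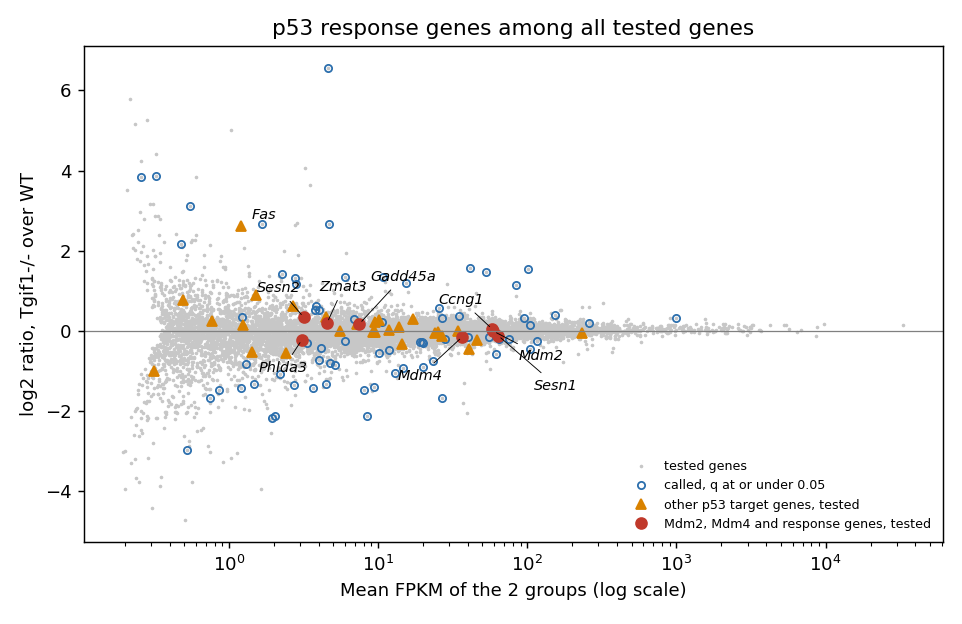
Log2 ratio (Tgif1-/- over WT) against mean FPKM (log scale) of tested genes with values above 0 in both groups (grey), called genes among them (blue circles), the 8 tested genes of the p53 network (red) and other p53 target genes (orange triangles). The red points lie between -0.23 and 0.33 inside the grey band, and Fas lies apart at 2.61.

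Of 34 other known p53 target genes in the table, 27 were tested, 13 higher and 14 lower in the Tgif1-/- group. Cuffdiff called none of the 27, against 0.662% of all tested genes. Of the 27 genes 2 (7.41%) had an unadjusted p under 0.05 in the authors' deposited table, against 5.41% of all tested genes. These were 1 in each direction, and the median log2 ratio of the 27 was -0.01. Fas, the death receptor, had 2.07 FPKM in the Tgif1-/- group and 0.338 FPKM in the WT group. Its log2 ratio was 2.61 ± 0.77, and in the authors' deposited table its p was 0.000659 and its q 0.0794. With 1 FPKM added to both values, the log2 ratio of Fas was 1.20.

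Cdkn1a, which encodes the cell cycle inhibitor p21, had 34.3 FPKM in the Tgif1-/- group and 47.3 FPKM in the WT group. Its log2 ratio was -0.46 ± 0.21, and in the authors' deposited table its p was 0.0272 and its q 0.689. The target genes with the next smallest p-values did not pass at an unadjusted 0.05. Ephx1, an epoxide hydrolase, had 1.99 FPKM in the Tgif1-/- group and 1.07 FPKM in the WT group (p = 0.0736 in the authors' deposited table), and the tetraspanin gene Cd82 had 18.9 FPKM in the Tgif1-/- group and 15.4 FPKM in the WT group (p = 0.107 in the authors' deposited table). Perp, a membrane protein of p53-driven cell death, had 3.27 FPKM in the Tgif1-/- group and 2.14 FPKM in the WT group. 9630033F20Rik, whose identifier belongs to Tigar, a regulator of glycolysis, had 1.16 FPKM in the Tgif1-/- group and 1.67 FPKM in the WT group.

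By role, the 4 cell cycle targets ran from -0.46 (Cdkn1a) to 0.22 (Gtse1) in log2 ratio. The 7 tested cell death targets ran from -0.33 for Bax, which permeabilises mitochondria, to 2.61 for Fas, with 4 higher and 3 lower. Of the 5 repair targets 1 was higher and 4 were lower, within -0.23 (Rrm2b, a ribonucleotide reductase subunit) and 0.26 (Ercc5, an excision repair nuclease). The 5 metabolic targets ran from -0.56 for Dram1, a regulator of autophagy, to 0.90 for Ephx1, with 2 higher and 3 lower. The 6 tested targets in signalling and other roles ran from -1.02 for Plk2 to 0.34 for Ddit4, an inhibitor of mTORC1, with 4 higher and 2 lower. Plk2, a polo-like kinase, had the lowest ratio of the 27, at 0.206 FPKM in the Tgif1-/- group and 0.418 FPKM in the WT group (p = 0.126 in the authors' deposited table). Bbc3, which encodes the death protein Puma, was low, at 1.30 FPKM in the Tgif1-/- group and 1.18 FPKM in the WT group.

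Upstream of p53, 9 of 21 regulator genes were tested, 4 higher and 5 lower in the Tgif1-/- group. Cuffdiff called none of the 9, against 0.662% of all tested genes. An unadjusted p under 0.05 was held by 0 of them, against 5.41% of all tested genes, and their median log2 ratio was -0.02. All 9 intervals lay within 2-fold. Prkdc, a DNA damage kinase, had 11.9 FPKM in the Tgif1-/- group and 14.1 FPKM in the WT group (p = 0.200 in the authors' deposited table). Ube2d1, a ubiquitin-conjugating enzyme that works with Mdm2, had 88.4 FPKM in the Tgif1-/- group and 102 FPKM in the WT group (p = 0.287 in the authors' deposited table). Hdac1, a deacetylase, had 142 FPKM in the Tgif1-/- group and 146 FPKM in the WT group. Rpl5, a ribosomal protein that can bind Mdm2, had 3018 FPKM in the Tgif1-/- group and 2817 FPKM in the WT group. The checkpoint kinase gene Chek2 had 18.3 FPKM in the Tgif1-/- group and 17.3 FPKM in the WT group, and the acetyltransferase gene Ep300 had 51.4 FPKM in the Tgif1-/- group and 53.4 FPKM in the WT group. Cdkn2a, whose Arf product blocks Mdm2, was listed at 0.0577 FPKM in the Tgif1-/- group and at 0 in the WT group, with too few reads to test. The tests of 11 regulators failed, among them the damage kinase gene Atm at 69.3 FPKM in the Tgif1-/- group and 81.0 FPKM in the WT group.

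**Figure D4:**
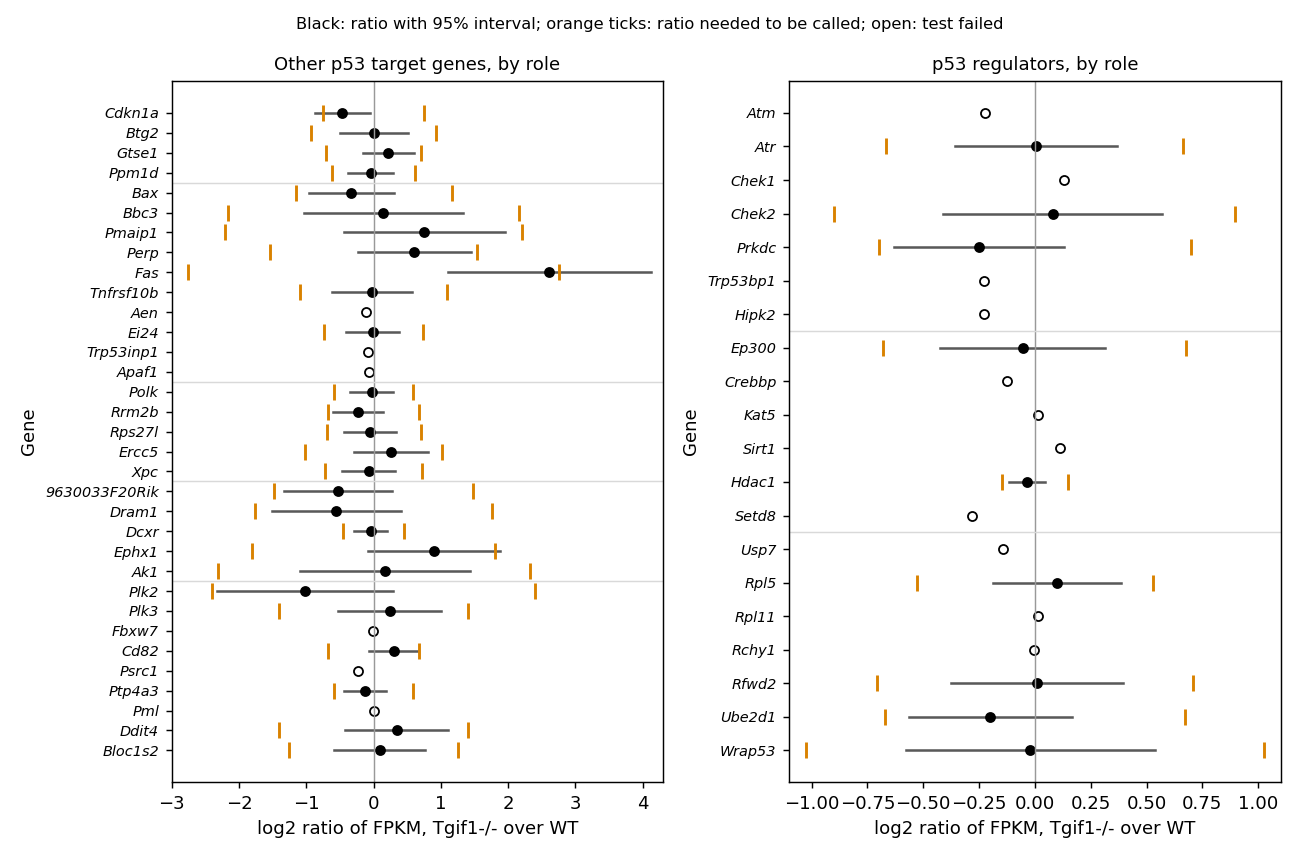
Log2 ratio (Tgif1-/- over WT) with its 95% interval of other p53 target genes (left) and p53 regulators (right), grouped by role, with orange ticks at the ratio needed for a call and open points where the authors' test failed. No point reaches its ticks, Fas lies highest at 2.61 and Plk2 lowest at -1.02, and all tested regulators lie between -0.25 and 0.10.

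Of 15 relatives and partners, 12 were tested, 3 higher and 9 lower, against 4573 higher and 6157 lower among all tested genes. Cuffdiff called none of the 12, against 0.662% of all tested genes, and 0 of them had an unadjusted p under 0.05, against 5.41%. Gadd45b had 3.13 FPKM in the Tgif1-/- group and 2.63 FPKM in the WT group, and Gadd45g had 1.25 FPKM in the Tgif1-/- group and 0.651 FPKM in the WT group. The log2 ratio of Gadd45g, 0.94 ± 0.59, had a p of 0.112 in the authors' deposited table. Ccni, cyclin I, had 366 FPKM in the Tgif1-/- group and 413 FPKM in the WT group (p = 0.0526 in the authors' deposited table). Zmat1 had 4.62 FPKM in the Tgif1-/- group and 5.50 FPKM in the WT group. Ddb1, the partner of Ddb2 in lesion recognition, had 96.1 FPKM in the Tgif1-/- group and 99.9 FPKM in the WT group, and the ligase scaffold Cul4a had 81.1 FPKM in the Tgif1-/- group and 87.6 FPKM in the WT group. The p53 relatives Trp63 and Trp73 had too few reads to test. Trp63 had 0.103 FPKM in the Tgif1-/- group and 0.0865 FPKM in the WT group, and Trp73 had 0.00742 FPKM in the Tgif1-/- group and was listed at 0 in the WT group.

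Facts of the whole series bear on all of these values. Tgif1 itself had 88.6 FPKM in the Tgif1-/- group and 71.5 FPKM in the WT group, and its test failed, so the value of the targeted gene does not check the labels. Each direction is therefore one between the groups as labelled. The LSK markers were present, and 9 of 9 were above 4 FPKM in both groups, with a summed level of 1008 FPKM in the Tgif1-/- group and 1017 FPKM in the WT group. Of the 8 mast cell and basophil markers, 4 were called higher (Prss34, Mcpt8, Ms4a2 and Cpa3), and the list summed to 389 FPKM in the Tgif1-/- group and 157 FPKM in the WT group. Of 9 B cell markers 4 were called lower (Ebf1, Cd79a, Igll1 and Blnk), and the list summed to 59.2 FPKM in the Tgif1-/- group and 122 FPKM in the WT group. Cuffdiff called no marker of the other 5 lists. All 6 tested neutrophil markers were lower in the Tgif1-/- group, 4 of them at an unadjusted p under 0.05, against 5.41% of all tested genes. The median log2 ratio of these 6 was -0.90. All 8 listed, 2 of them with failed tests, summed to 3362 FPKM in the Tgif1-/- group and 3729 FPKM in the WT group. Most of each sum was Mpo, whose test failed, at 3055 FPKM in the Tgif1-/- group and 3289 FPKM in the WT group. Of 5 megakaryocyte markers 2 were higher and 1 was lower at that unadjusted level, and the list summed to 185 FPKM in the Tgif1-/- group and 121 FPKM in the WT group. Of 7 erythroid markers 5 were higher and 2 lower, and 1 of them, Car1, was higher at that level. The list summed to 327 FPKM in the Tgif1-/- group and 232 FPKM in the WT group, of which Car1 gave 281 FPKM and 187 FPKM. Only 3 of 5 T cell markers and 2 of 5 monocyte markers were tested, and 0 of these passed that level. The T cell marker Cd3g was listed at 0 in the Tgif1-/- group and at 0.677 FPKM in the WT group. Its p was 0.146 in the authors' deposited table. The part of these cells in the values of the p53 network was not tested.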

How the data were processed

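RNA from LSK cells of 6 samples (about 200 ng, per the labels' protocols) was sequenced, 3 samples per genotype. The submitters' processing notes name TopHat and Cuffdiff, without versions, and the build hg19, which is human, while the identifiers of the 10 genes are mouse identifiers. The deposited table gives 1 FPKM per group, computed by the authors, with a log2 fold change (WT over Tgif1-/-, turned round here), a test statistic, and a p-value and q-value by the authors, per the file headers. No column holds single samples. Of 1267 genes above 0 and under 0.1 FPKM in each group, at most 18 shared a log2 ratio to 2 decimals. No expected count was computed, so whether low FPKM values stand in whole-read steps is not settled.

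Recomputing a Benjamini-Hochberg adjustment over the 10730 tested genes gave the q-values of the deposited table, and p equals the normal two-sided value of the statistic for 10683 genes (both within 0.001). The log2 ratio divided by the statistic was used as its standard error. It comes from the authors' model and not from sample values. Intervals are 1.96 standard errors to each side (95%) and cover that error only.

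The genes and lists were chosen with earlier results of these data known. Named were all 10 genes, Tgif1, the called genes of each list, and up to 6 genes of each of 3 pathway lists by smallest p with at least 1 FPKM in a group. Wrap53, Acp2, Sesn3, Gtse1, Bax, Rrm2b, Ercc5, Dram1, Plk2, Ddit4, Bbc3, Cdkn2a, Atm, Trp63, Trp73, Mpo, Car1 and Cd3g were named after their values were seen. Of 35 other target genes asked for, 34 were found. Alternatives were other q thresholds, FPKM minimums, adjustments, centring, pseudocounts and an error floor, the median error of tested genes within each of 20 bins of expression. Python 3.11.15, pandas 2.3.3, numpy 2.4.6, scipy 1.17.1 and matplotlib 3.10.9 were used. The calculations were tested on simulated data drawn with the implied errors, which does not check those errors.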

Additional observations from a re-analysis of the deposited data

How the results depend on the processing

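None of the 8 tested genes was called under any of the 8 alternatives run for the count: q at or under 0.01 or 0.1, at least 1 or 5 FPKM in a group, 1 line per symbol, adjustment over all lines, the error floor, or centring. The same held for the regulators and for the relatives and partners. Of these settings, q at or under 0.01, adjustment over all lines and the error floor are stricter, so they could hardly add a call. Among other target genes 1, Fas, was called at q at or under 0.1. Among all tested genes 71 were called, against 39 at q at or under 0.01, 21 under the error floor and 46 where a minimum of 5 FPKM in either group was set. A pseudocount of 0.1 or 1 FPKM added to both values cannot turn a direction, so only centring could. Under centring the ratios of the 10 genes kept their direction, except that Mdm2 was at 0.0179. The cause of that turn is the centring itself, since the median of tested genes was -0.03. The median of the 8 genes ran from -0.01 over the 5 with at least 5 FPKM to 0.04 after centring. With no values per sample, leaving out a replicate was not run, and the depth is unknown. No paired analysis was possible because the columns carry 1 value per group.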
